A study of Mus musculus with 18 samples.

Results

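The 80 genes described here encode the collagens, laminins and integrins of the mouse, together with fibronectin (Fn1), the nidogens Nid1 and Nid2 and perlecan (Hspg2). They were chosen by gene name alone among the 55385 genes of the deposited count table: every collagen chain, every laminin alpha, beta or gamma chain, every integrin alpha or beta chain named by a number, and Itgav. Integrin alpha chains named by other letters, most of them leukocyte chains, fell outside that choice. The set held 44 collagen chains, 11 laminin chains, 13 integrin alpha chains, 8 integrin beta chains and the 4 single proteins. Of the 80 genes, 63 reached a mean of 1 CPM (counts scaled to a common library size) in at least 1 group and are called expressed here. The other 17 stayed below that level in all 6 groups and are called silent. The highest group mean was 0.827 CPM for Itgb3 and 0.8098 CPM for Col1a1, just below the limit, and 1.15 CPM for Col20a1 and 1.42 CPM for Col6a1, just above it.

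Messenger RNA was sequenced from wild-type (WT) gastruloids of the strain 129/SVEV, aggregates of mouse embryonic stem cells that lengthen and form germ layers in culture. All treated groups received 1 pulse of CHIR, which switches on Wnt signalling by blocking GSK3, and the groups differed in when the pulse came and in the age at collection. Control gastruloids were collected untreated at 48 h after aggregation, at 72 h at the end of a pulse from 48 to 72 h, and at 96 h, a day after that pulse. Early gastruloids received the pulse from 24 to 48 h and were collected at its end at 48 h, a day after it at 72 h, and at 96 h. Each of the 6 groups had 3 libraries, and each library came from gastruloids pooled in a tube, so it averages over many aggregates and over all of their cells. In such bulk RNA, fewer cells of a kind and less RNA per cell cannot be told apart. Nothing in the labels says whether a group's libraries are separate cultures, and the p-values thus reflect only how far these libraries differ.

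Collagens, laminins and fibronectin are secreted proteins that build the extracellular matrix. Laminin trimers and type IV collagen form the networks of the basement membrane, which nidogens and perlecan join together, while fibronectin and the fibrillar collagens form fibres around and between mesenchymal cells. Integrins are receptors of an alpha and a beta chain that hold cells to this matrix: in broad terms the alpha 5 and alpha V chains serve fibronectin, alpha 3 and alpha 6 serve laminins, and alpha 1 and alpha 2 serve collagens. In the gastrulating embryo the epiblast rests on a laminin-rich basement membrane that is breached at the primitive streak, and fibronectin fibres surround the presomitic mesoderm and somites that form afterwards.

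The libraries held 14841728 to 24536538 counts, of which the 80 genes took 0.286% to 0.533%. The gastruloid label was checked with marker lists. The 6 pluripotent epiblast markers summed to 619, 548 and 332 CPM in the control libraries of 96 h and to between 1807 and 2588 CPM in the others, and the 6 presomitic mesoderm markers to 1269.6, 1316 and 690.0 CPM in the control libraries of 96 h against 18.4 to 40.2 CPM elsewhere. The notochord markers summed to 1027, 1281 and 884 CPM in the controls of 72 h and 34.5, 29.1 and 34.9 CPM in the early libraries of that age. At 96 h they summed to 761, 664 and 485 CPM in the controls and 680, 585 and 511 CPM in the early libraries. Their range over all libraries was 6.37 to 1281 CPM. In the controls of 72 h Noto had 0 counts and only 3 of the 6 markers, which include T, reached 1 CPM. That sum therefore does not show notochord cells. The neural tube markers summed to 6.503, 6.52 and 26.6 CPM in the controls of 96 h, so they were high in replicate 3 alone, and to at most 9.08 CPM in the other groups. In the same 3 libraries the somite markers summed to 31.6, 34.6 and 11.9 CPM, against at most 8.27 CPM elsewhere. There 3 of the 7 markers reached 1 CPM. Of the 4 tested, 2 were lower and 2 higher in early than in control gastruloids of 96 h (adjusted p under 0.05 in edgeR's quasi-likelihood test), against 29.6% and 29.5% of all genes. The blood and vessel markers summed to 88.4, 88.1 and 83.5 CPM in the early libraries of 48 h and 32.9, 31.1 and 38.5 CPM in the untreated controls, and their range over all libraries was 4.61 to 88.4 CPM. Only 3 of the 10 markers reached 1 CPM in those early libraries and 4 in the untreated controls. By the same test 2 of the 7 tested were higher and 3 lower in early gastruloids of 48 h (23% and 20.7% of all genes), so the sum does not show a rise of the list as a whole. Replicate 3 stood apart from the other 2 libraries in the gene counts of each control group, most of all at 96 h. At 96 h it also stood apart in several of the marker sums. Many of the genes below showed such a difference, so values are printed by library. Each library was left out in turn, and the value without it is given where it moved a fold change by more than 1.5 times. Of other cells that make matrix, the 8 fibroblast and feeder markers had their highest sum in the controls of 96 h. Many matrix genes were highest in that group too. They summed to 38.5, 39.4 and 35.2 CPM there, of which Pdgfrb made up 29.1, 29.9 and 25.2 CPM, and to 13.6, 14.3 and 11.8 CPM in the early libraries of 96 h. Lum and S100a4 were at 0 in every group, and only 3 of the 8 markers reached 1 CPM in the controls of 96 h. By the same test 2 of the 4 tested were lower and 2 higher in early gastruloids of 96 h (29.6% and 29.5% of all genes). The sum therefore does not show a difference of the list as a whole. The 12 extraembryonic endoderm markers summed to 106, 111 and 101 CPM in the early libraries of 96 h and to 66.04, 47.4 and 22.6 CPM in the controls of that age. What part any of these cells had in the levels of the matrix genes was not tested.

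More genes of the set had their highest mean in the control gastruloids of 96 h than in any other group. Of the 63 expressed genes, 31 (49.2%) had their highest mean there, against 32.8% of the 16041 genes tested, and 11 (17.5%) had it in the early libraries of 48 h, against 22.3% of all genes. The lowest mean was in the untreated controls of 48 h for 25 genes (39.7%, against 22.8% of all genes) and in the early libraries of 48 h for 17 (27%, against 20.7%). In all, 66 of the 80 genes passed the filter on low counts, the 63 expressed ones and the silent Col1a1, Col6a6 and Itgb3, and the counts below are over those 66. Here and below a gene is called higher or lower at an adjusted p under 0.05 in edgeR's quasi-likelihood test, changes are log2 fold changes ± SE, levels are CPM, and a mean carries its SD (n = 3 libraries a group).

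Between arms at the same age, 20 of the 66 genes were higher in early than in control gastruloids at 48 h and 11 lower, where 23% and 20.7% of all tested genes were called. At 72 h, 19 were higher and 15 lower, against 21.7% and 23.2% of all genes. At 96 h more genes were lower than at the younger ages, with 14 higher and 37 lower against 29.5% and 29.6% of all genes, and the median of the 66 was -0.62 where that of all genes was -0.01. Along the control arm, 28 genes were higher and 18 lower at 72 h than at 48 h (31.1% and 30.3% of all genes), and 35 were higher and 12 lower at 96 h than at 72 h (27.5% and 27.4%). Along the early arm, 23 were higher and 8 lower at 72 h than at 48 h (20.7% and 21.9%), and 13 were higher and 15 lower at 96 h than at 72 h (17.6% and 17.6%). When the arms were lined up by the pulse and not by age, 19 genes were higher and 26 lower in early gastruloids at the end of the pulse (29.5% and 31.7% of all genes), and 16 were higher and 35 lower a day after it (34.3% and 35.4%). The step over that day was higher in the early arm for 15 genes and lower for 20 (22.8% and 21.7% of all genes). Several of these comparisons share groups, so their counts are not independent of each other. Without replicate 3 of the control libraries of 96 h, the comparison at 96 h held 14 genes higher and 38 lower, and the control step into 96 h held 37 higher and 13 lower.

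**Figure D1:**
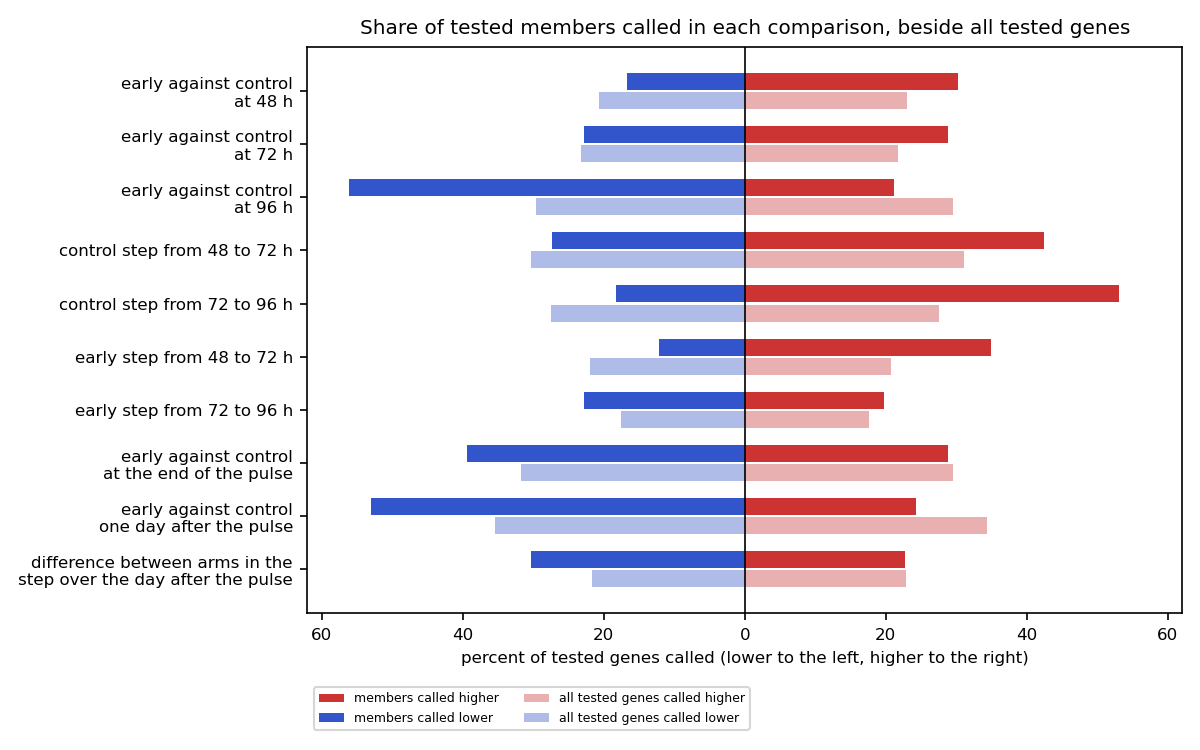
Share of the 66 tested matrix and integrin genes called lower (left) or higher (right) in each of 10 comparisons, in percent, with the share of all 16041 tested genes in pale bars below each. The longest bar to the left in a comparison of equal age is that of 96 h, where 37 of the 66 genes were lower in early gastruloids.

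**Figure D2:**
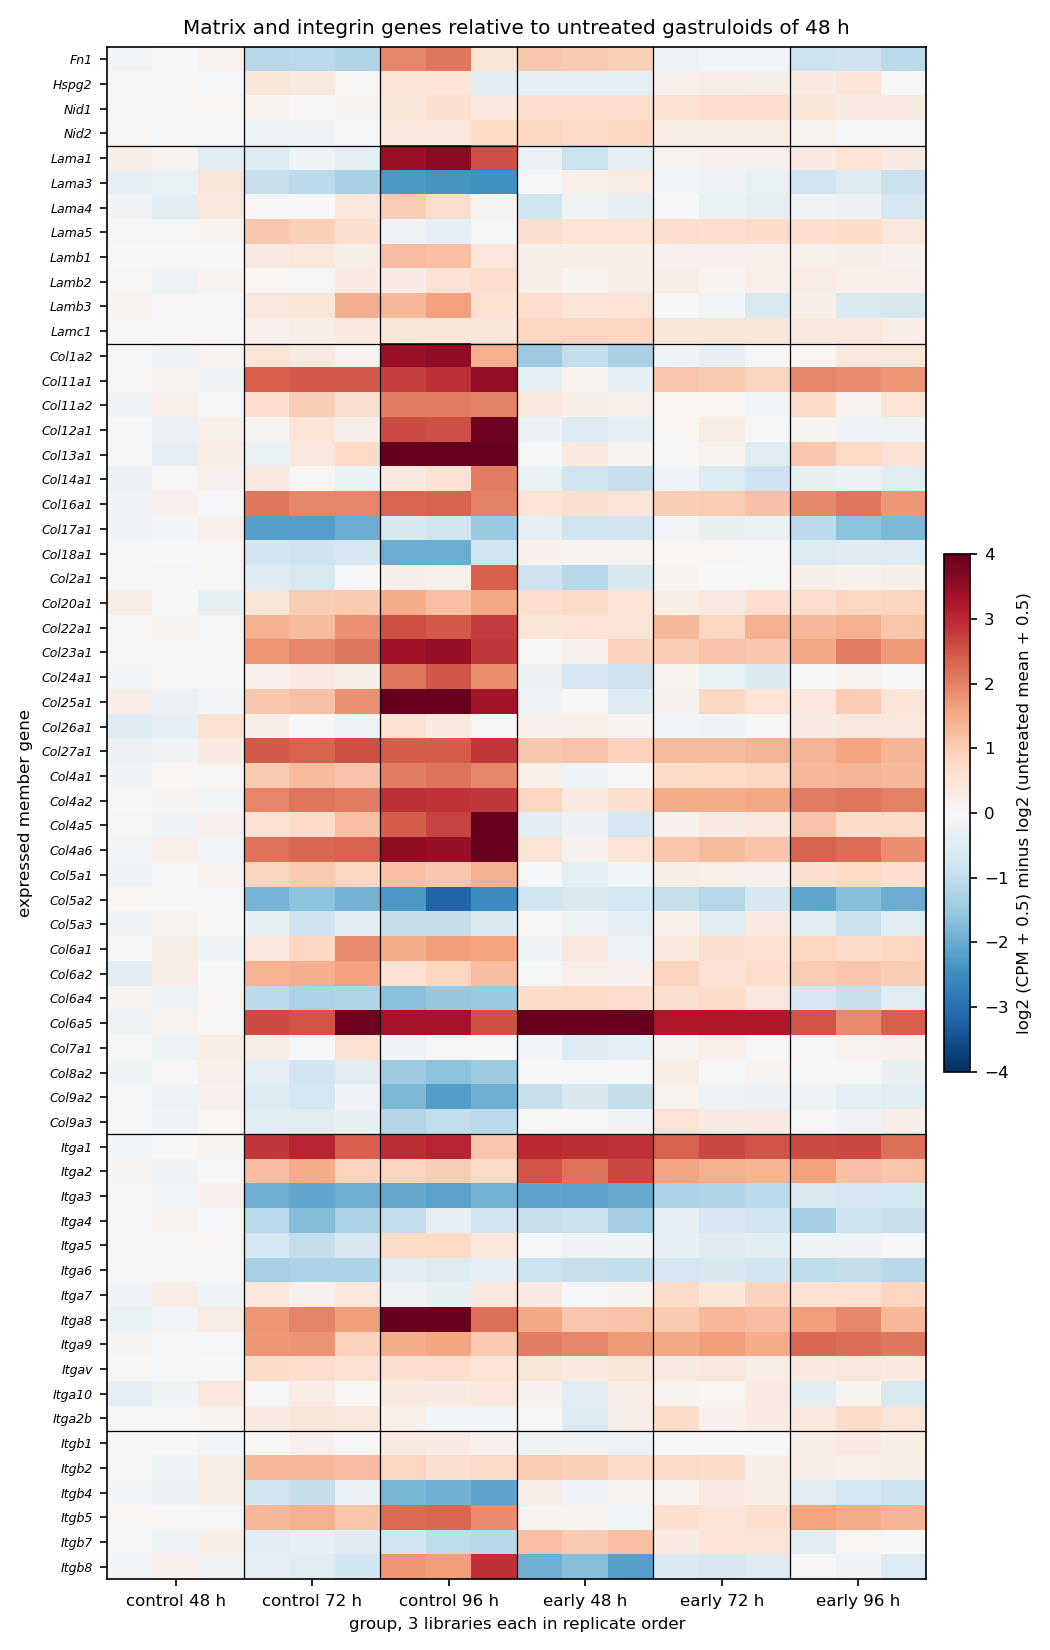
Level of 62 of the 63 expressed genes in the 18 libraries, as log2 (CPM + 0.5) relative to the mean of the untreated controls of 48 h, with red higher and blue lower. Rows are genes by family, columns are libraries by group in replicate order, and 31 of the 63 genes have their highest mean in the controls of 96 h.

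Fibronectin had the highest level of the 80 genes per length in the control gastruloids of 96 h, at 151 ± 72.99 FPKM (fragment counts scaled for transcript length and library size). In the controls it fell from 48 to 72 h and rose from 72 to 96 h, while in the early arm it was highest at 48 h and fell from 48 to 72 h. Fn1 stood at 453, 472 and 543 CPM in the 3 untreated control libraries of 48 h, 226, 231 and 211 CPM in the controls of 72 h and 1880.1, 2115 and 687 CPM in the controls of 96 h. In the early libraries it stood at 1025, 1022 and 951 CPM at 48 h, 428, 458 and 449 CPM at 72 h and 272, 277 and 233 CPM at 96 h. All control libraries of 96 h other than replicate 3 lay above every other library, and the early libraries of 48 h lay above both other early groups. In the control libraries of 96 h the presomitic markers were also highest, and their part in this level was not tested.

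At 48 h early gastruloids had 1.03 ± 0.24 log2 units more Fn1 than controls (adjusted p = 0.00177), and at 72 h 1.00 ± 0.24 more (adjusted p = 0.00253), although the level was by then lower in both arms. At 96 h the sign was opposite, at -2.58 ± 0.25 (adjusted p = 7.45e-08), a 5.99-fold lower mean, with no overlap between the groups. In the control arm Fn1 fell between 48 and 72 h (-1.14 ± 0.24) and rose between 72 and 96 h (2.81 ± 0.25). The early arm gave -1.17 ± 0.24 over the day from 48 to 72 h, and the difference between the arms over the day after the pulse was -3.98 ± 0.35 (adjusted p = 4.9e-08). Fn1 lies on chromosome 1 at chr1:71585520-71653200 (mm10, minus strand).

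The chains of the main fibronectin receptor, integrin alpha 5 beta 1, followed Fn1 only in part. Itga5, the alpha chain, was at 21.9, 21.5 and 23.5 CPM in the controls of 48 h, 13.6, 11.2 and 14.2 CPM in those of 72 h and 37.4, 39.5 and 30.7 CPM in those of 96 h. Its early libraries held 21.6, 20.01 and 19.97 CPM at 48 h, 17.8, 15.4 and 16.1 CPM at 72 h and 19.7, 20.4 and 22.1 CPM at 96 h. The 3 control libraries of 96 h were the highest of all 18, replicate 3 included. Itga5 fell in the controls from 48 to 72 h (-0.78 ± 0.10), rose from 72 to 96 h (1.47 ± 0.10) and was lower in early than in control gastruloids of 96 h (-0.80 ± 0.10, adjusted p = 1.11e-06). The step over the day after the pulse differed between the arms by -1.79 ± 0.14 (adjusted p = 1.47e-08). Itgb1, the beta chain shared by most of these receptors, had group means that ranged only between 174 ± 4.304 CPM in the early libraries of 48 h and 244 ± 5.297 CPM in those of 96 h. In the length-scaled FPKM values, Itga5 stood at 0.0522 ± 0.00841 of the level of Itgb1 in the controls of 72 h and at 0.123 ± 0.00828 in those of 96 h.

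Of the receptors built on alpha V, which bind vitronectin, fibronectin and latent TGF-beta, the chain Itgav itself lay between 30.6 ± 1.103 and 49.5 ± 2.18 CPM as group means, while its beta partners ranged further. Itgb5 was at 15.8, 14.99 and 14.3 CPM in the controls of 48 h and at 73.6, 76.2 and 56.7 CPM in those of 96 h, with no overlap, and rose at both control steps (1.31 ± 0.11 and 0.88 ± 0.10). It rose in the early arm too (0.59 ± 0.12 from 48 to 72 h and 0.87 ± 0.11 from 72 to 96 h). At 96 h the early libraries, at 47.2, 43 and 39.1 CPM, were below the controls (-0.68 ± 0.10, adjusted p = 1.77e-05). Itgb8, a partner chain that takes part in the activation of TGF-beta, was at 2.14, 2.77 and 2.05 CPM in the controls of 48 h against 0.242, 0.368 and 0.114 CPM in the early libraries (-3.25 ± 0.50, adjusted p = 3.84e-05). At 96 h it was at 8.98, 8.42 and 21.01 CPM in the controls, with replicate 3 the highest, and at 2.32, 2.04 and 1.44 CPM in the early libraries (-2.70 ± 0.30, adjusted p = 4.63e-07). Itgb3, the partner known from platelets, was silent, and Itgb6, an epithelial chain, had 0 counts in all 18 libraries.

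Itga8, a chain that binds nephronectin and fibronectin, was at 27.7, 31.6 and 4.24 CPM in the controls of 96 h and at 2.76, 3.41 and 2.08 CPM in the early libraries of that age (-2.94 ± 0.46, adjusted p = 2.19e-05). Replicate 3 of the controls was far below the other 2 and yet above all 3 early libraries. The rise in the controls from 72 to 96 h was 2.77 ± 0.45, and the step over the day after the pulse differed between the arms by -2.84 ± 0.74. Itga4, which pairs with beta 1 or beta 7 and binds fibronectin and VCAM1, was low throughout, with its highest mean of 3.61 CPM in the untreated controls, and fell to 1.44, 0.7296 and 1.23 CPM in the controls of 72 h (-1.67 ± 0.26, adjusted p = 2.24e-05). Part of its exons lies opposite Cerkl on the other strand, and the strand setting of the counting is not given in the sources used here.

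**Figure D3:**
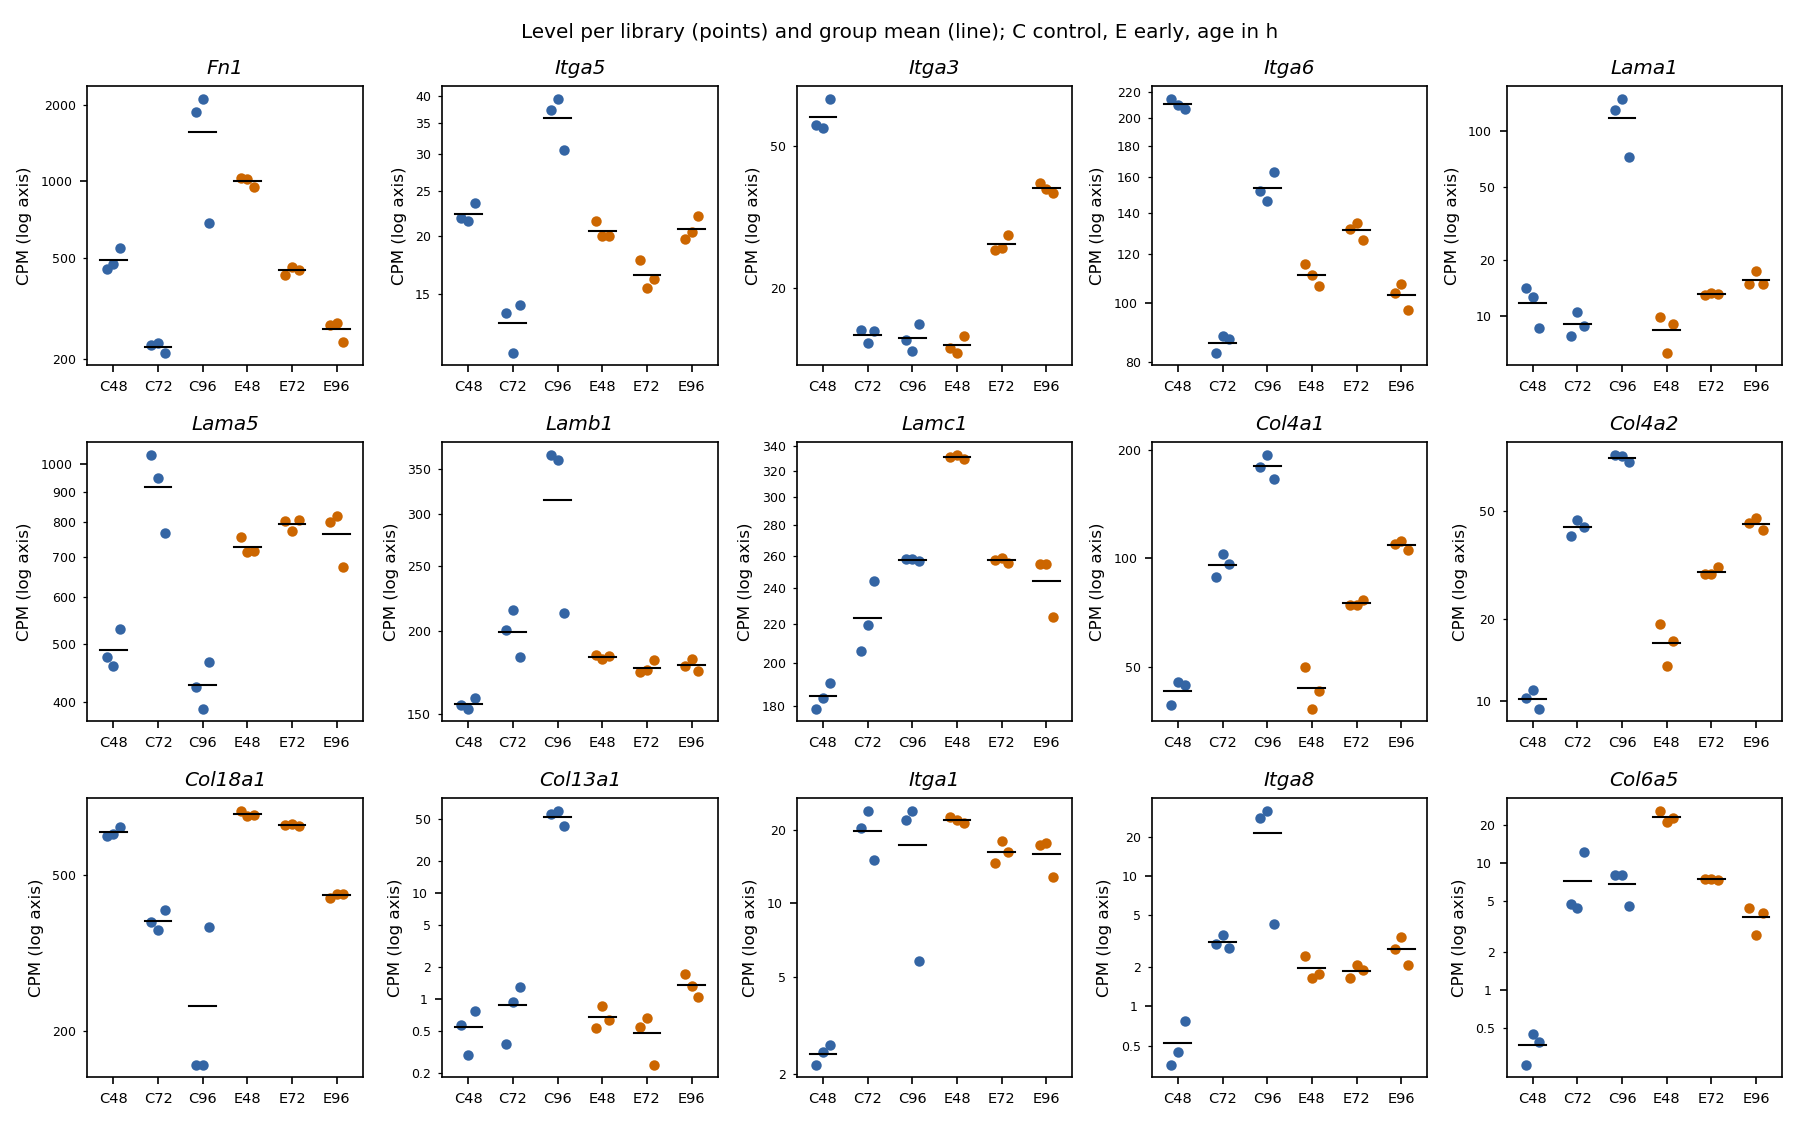
Level of 15 genes in CPM on a log axis, 1 point per library and a line at the group mean, with control groups (C) in blue and early groups (E) in orange and the age in hours. Fn1, Itga5, Lama1, Col13a1 and Itga8 are highest in the controls of 96 h, and Fn1, Itga8, Itga1 and Lamb1 show replicate 3 of that group far below the other 2.

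Among the laminin chains, Lama5, Lamb1 and Lamc1, which together form the main laminin of the epiblast, were above 100 CPM in all groups. Lama1, an alpha chain of the earliest basement membranes of the embryo, was far above its other levels in the controls of 96 h. Lama1 was at 14.1, 12.7 and 8.65 CPM in the controls of 48 h, 7.84, 10.5 and 8.84 CPM in those of 72 h and 131, 150.3 and 72.3 CPM in those of 96 h. The 9 early libraries lay between 6.32 and 17.5 CPM. The control libraries of 96 h were thus above all 15 others, and replicate 3 was the lowest of them. Lama1 rose in the controls from 72 to 96 h (3.70 ± 0.23, adjusted p = 2.62e-10), a 13.03-fold higher mean, and was lower in early than in control gastruloids of 96 h (-2.90 ± 0.21, adjusted p = 1.96e-09). The step over the day after the pulse differed between the arms by -3.07 ± 0.34 (adjusted p = 8.46e-07).

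Lama5 moved the other way in the controls. It was at 476, 459.8 and 530.2 CPM at 48 h, 1037, 949 and 766 CPM at 72 h and 424, 390.4 and 466 CPM at 96 h in the control libraries, while the 9 early libraries lay between 673 and 821 CPM. Lama5 rose and then fell in the controls (0.91 ± 0.09 and -1.10 ± 0.09). Early gastruloids had more Lama5 at 48 h (0.58 ± 0.09) and at 96 h (0.84 ± 0.09, adjusted p = 4.12e-07), and the step over the day after the pulse differed between the arms by 1.23 ± 0.13. On the FPKM scale the level of Lama1 relative to Lama5 was 0.355 ± 0.146 in the controls of 96 h and between 0.0128 and 0.03099 as a mean in the other 5 groups.

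The beta 1 and gamma 1 chains, which most laminins of the early embryo share, changed less. Lamb1 was at 155, 153 and 159 CPM in the controls of 48 h and at 368, 362 and 213 CPM in those of 96 h, and the 9 early libraries lay between 173 and 184 CPM. It was lower in early than in control gastruloids of 96 h (-0.82 ± 0.13, adjusted p = 2.18e-05), all 3 control libraries lying above all 3 early ones. Lamc1 was at 179, 183 and 191 CPM in the controls of 48 h and at 331, 333 and 329 CPM in the early libraries of that age, with no overlap (0.85 ± 0.05, adjusted p = 6.24e-10). It then fell in the early arm from 48 to 72 h (-0.37 ± 0.05) and differed by -0.57 ± 0.08 between the arms in the step over the day after the pulse. The FPKM ratio of Lamb1 to Lamc1 was 0.725 ± 0.00942 in the early libraries of 48 h and 1.11 ± 0.02401 in the controls of that age. In the controls of 96 h it was 1.88, 1.84 and 1.08 in the 3 libraries. Lamb2, an alternative beta chain, had group means between 22.1 ± 2.72 and 32.5 ± 4.19 CPM.

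Lama3 and Lamb3, chains of epithelial laminins of the skin and other stratified layers, were scarce. Lama3 was at 0.6503, 0.597 and 0.561 CPM in the controls of 96 h and at 2.76, 3.36 and 2.54 CPM in the early libraries (2.24 ± 0.28, adjusted p = 1.78e-06), and at 48 h its means were 5.17 ± 1.92 and 5.83 ± 0.848 CPM. Lamb3 went the other way at 96 h, with 4.105, 5.27 and 2.31 CPM in the controls and 1.71, 0.7104 and 0.693 CPM in the early libraries (-1.92 ± 0.38, adjusted p = 0.000243). Lama4, a chain of vessel laminins, had 2.76, 2.17 and 1.31 CPM in the controls of 96 h and 0.995, 0.8998 and 0.5198 CPM in the early libraries (-1.38 ± 0.34, adjusted p = 0.00178). Lama2, the chain of muscle laminin, and Lamc3 were silent.

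The linkers of the basement membrane split by gene. Nid2 was far above Nid1: its mean was 29.4 ± 1.095 FPKM in the controls of 48 h where that of Nid1 was 1.14 ± 0.0796 FPKM. Nid2 was at 194, 184 and 192 CPM in the controls of 48 h and 335, 326 and 339 CPM in the early libraries of 48 h, without overlap (0.81 ± 0.07, adjusted p = 5.86e-08). At 96 h the order was reversed, with 262, 258 and 329 CPM in the controls and 211, 180.4 and 184 CPM in the early libraries (-0.56 ± 0.07, adjusted p = 3.12e-06), and the step over the day after the pulse differed by -1.25 ± 0.10. Nid1 was also higher in early gastruloids at 48 h (0.74 ± 0.08) and at 72 h (0.59 ± 0.08, adjusted p = 1.22e-05). Part of the exons of Nid2 overlaps Rtraf on the opposite strand. Hspg2, whose product is the large heparan sulfate proteoglycan perlecan, was at 242, 248 and 126 CPM in the controls of 96 h, replicate 3 lowest, and at 220.3, 246 and 171 CPM in the early libraries, and it was not called at any of the 3 ages between the arms. It was lower in early gastruloids at the end of the pulse than in controls at the end of theirs (-0.71 ± 0.18, adjusted p = 0.00212).

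The laminin receptor chains Itga3 and Itga6 moved in opposite directions between the arms at 96 h. Itga3, which binds the laminins with an alpha 5 chain, was at 57.4, 56.3 and 67.95 CPM in the untreated controls, 15.3, 14.02 and 15.1 CPM in the controls of 72 h and 14.3, 13.4 and 15.9 CPM in those of 96 h. In the early arm it was at 13.6, 13.2 and 14.7 CPM at 48 h, 25.6, 25.95 and 28.2 CPM at 72 h and 39.6, 38.03 and 36.96 CPM at 96 h. Libraries collected at the end of either pulse overlapped, and the 3 early groups did not overlap each other. Early gastruloids had less Itga3 than controls at 48 h (-2.13 ± 0.08, adjusted p = 6.04e-13) and more at 72 h (0.84 ± 0.08) and 96 h (1.40 ± 0.08, adjusted p = 1.07e-10). Itga3 fell in the controls from 48 to 72 h (-2.03 ± 0.08) and rose in the early arm at both steps (0.94 ± 0.08 and 0.52 ± 0.08). At the end of the pulse Itga3 was not called different between the arms (-0.10 ± 0.09, adjusted p = 0.357).

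Itga6, the other alpha chain of laminin receptors and a known surface marker of pluripotent cells, was at 215, 209 and 206 CPM in the untreated controls, 82.9, 88.2 and 87.3 CPM at 72 h and 152, 146 and 163 CPM at 96 h in the control arm. The early libraries held 116, 111 and 107 CPM at 48 h, 132, 135 and 126 CPM at 72 h and 104, 107 and 97.3 CPM at 96 h. It fell in the controls from 48 to 72 h (-1.29 ± 0.05) and rose again from 72 to 96 h (0.83 ± 0.05). At 96 h it was lower in early than in control gastruloids (-0.58 ± 0.05, adjusted p = 1.3e-08), where Itga3 was higher. The FPKM ratio of Itga3 to Itga6 was 0.0651 ± 0.00227 in the controls of 96 h and 0.248 ± 0.00793 in the early libraries of that age. Itgb4, the beta partner that ties alpha 6 to keratin filaments, had 1.58, 1.47 and 1.25 CPM in the controls of 96 h and 4.81, 4.07 and 3.58 CPM in the early libraries (1.52 ± 0.23, adjusted p = 1.37e-05), and it fell from 72 to 96 h in the controls (-1.57 ± 0.23). Itga7, a laminin receptor chain of muscle, did not exceed 1.63 CPM in any group mean.

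**Figure D4:**
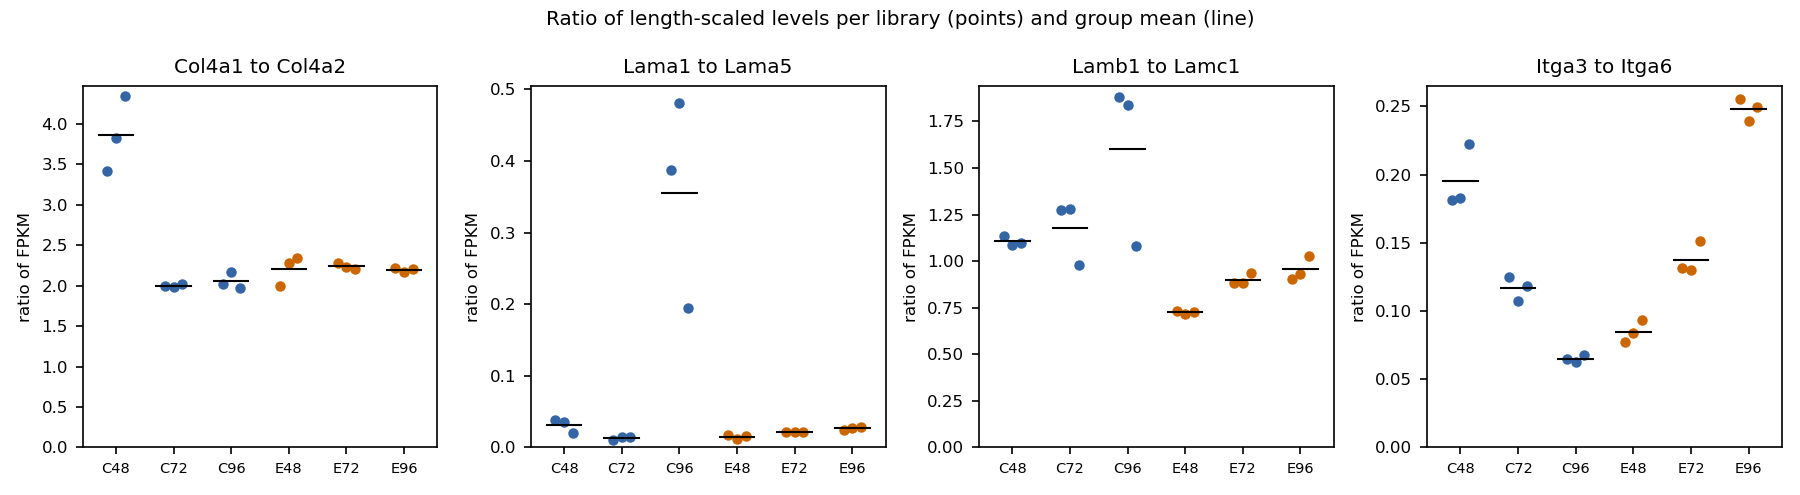
Ratio of FPKM values of 4 gene pairs, 1 point per library and a line at the group mean, on axes that start at 0, with control groups (C) in blue and early groups (E) in orange. Col4a1 to Col4a2 is high in the untreated controls, Lama1 to Lama5 in the controls of 96 h, and Itga3 to Itga6 is lowest in the controls of 96 h and highest in the early libraries of that age.

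Type IV collagen, the second network of the basement membrane, is encoded by pairs of genes that lie head to head. Col4a1 (chr8:11198423-11312826, minus strand) and Col4a2 (chr8:11312805-11449287, plus strand) encode the chains of its common form, 2 alpha 1 chains to each alpha 2 chain, and their annotated exons overlap by 22 bases at the shared start. Their promoter windows, taken from RefSeq on the assembly GRCm38.p6, run 300 bases each across the start site and share 78 bases. They are printed because both genes of the pair rose with age in both arms, with capitals marking matches on either strand. Among the motifs searched, those with matches in these windows were GGGCGG, the GC box bound by Sp1, and CCAAT, bound by the factor NF-Y. Among 64 windows of 58 genes of the set, GGGCGG stood in 56.2%, against 35.7% of all 32851 windows, and CCAAT in 26.6% against 37.4%. A match describes these letters only.
Col4a1 (chr8:11312777-11313076, minus strand): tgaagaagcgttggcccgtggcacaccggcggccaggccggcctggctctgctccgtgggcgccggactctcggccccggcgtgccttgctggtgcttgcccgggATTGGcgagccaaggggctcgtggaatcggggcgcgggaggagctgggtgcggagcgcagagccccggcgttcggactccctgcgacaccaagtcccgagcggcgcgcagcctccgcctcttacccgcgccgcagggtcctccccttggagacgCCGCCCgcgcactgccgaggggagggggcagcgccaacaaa
Col4a2 (chr8:11312555-11312854, plus strand): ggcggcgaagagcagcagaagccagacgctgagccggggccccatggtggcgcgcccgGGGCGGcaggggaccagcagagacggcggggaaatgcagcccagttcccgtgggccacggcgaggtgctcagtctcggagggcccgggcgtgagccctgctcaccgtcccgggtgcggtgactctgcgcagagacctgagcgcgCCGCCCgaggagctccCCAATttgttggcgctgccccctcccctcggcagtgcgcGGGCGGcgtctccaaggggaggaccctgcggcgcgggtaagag

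Both genes rose with age in both arms. Col4a1 was at 39.3, 45.3 and 44.4 CPM in the controls of 48 h, 88.9, 103 and 96.4 CPM at 72 h and 179.8, 194 and 167 CPM at 96 h, and at 49.9, 38.3 and 42.9, then 74.3, 74.4 and 76.7, then 109.5, 112 and 105 CPM in the early libraries of the same ages. Col4a2 was at 10.3, 10.9 and 9.36 CPM in the controls of 48 h, 40.5, 46.4 and 43.4 CPM at 72 h and 80.3, 79.4 and 75.6 CPM at 96 h, and at 19.1, 13.4 and 16.5, then 29.2, 29.3 and 31.05, then 44.9, 46.9 and 42.4 CPM in the early libraries. Within each arm the 3 ages did not overlap for either gene. The control steps were 1.16 ± 0.08 and 0.91 ± 0.08 for Col4a1 and 2.09 ± 0.10 and 0.85 ± 0.08 for Col4a2. The early steps were 0.78 ± 0.08 and 0.54 ± 0.08 for Col4a1 and 0.86 ± 0.09 and 0.59 ± 0.09 for Col4a2.

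The early arm was below the controls for both chains at 72 h (-0.36 ± 0.08 and -0.54 ± 0.09) and at 96 h (-0.72 ± 0.08 and -0.81 ± 0.08, adjusted p = 2.58e-07 and 1.67e-07). At 48 h the chains differed from each other: Col4a2 was higher in early gastruloids (0.68 ± 0.10, adjusted p = 3.16e-05), and Col4a1 was not called (0.03 ± 0.09, adjusted p = 0.827). The FPKM ratio of Col4a1 to Col4a2 was 3.86 ± 0.467 in the untreated controls and had means between 1.998 and 2.24 in the 5 treated groups. All 3 untreated libraries, at 3.42, 3.82 and 4.35, lay above all 15 treated ones.

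The other expressed type IV pair is Col4a5 and Col4a6 on chromosome X, whose gene starts lie 1308 bases apart and whose windows do not overlap. Their windows are printed beside the first pair to show that difference. Both hold GGGCGG, and Col4a5 alone of the pair holds CCAAT.
Col4a5 (chrX:141475169-141475468, plus strand): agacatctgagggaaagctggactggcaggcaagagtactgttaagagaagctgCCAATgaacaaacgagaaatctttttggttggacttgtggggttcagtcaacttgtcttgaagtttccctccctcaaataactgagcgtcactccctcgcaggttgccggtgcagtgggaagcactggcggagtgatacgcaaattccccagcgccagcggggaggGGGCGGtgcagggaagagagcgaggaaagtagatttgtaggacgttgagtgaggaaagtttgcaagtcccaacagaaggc
Col4a6 (chrX:141474027-141474326, minus strand): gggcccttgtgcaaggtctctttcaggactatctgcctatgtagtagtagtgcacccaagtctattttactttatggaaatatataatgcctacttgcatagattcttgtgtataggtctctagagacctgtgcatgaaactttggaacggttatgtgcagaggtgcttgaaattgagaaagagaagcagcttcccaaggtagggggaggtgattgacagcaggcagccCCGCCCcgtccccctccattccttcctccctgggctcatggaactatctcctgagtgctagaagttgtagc

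Col4a5 was at 3.41, 3.86 and 5.33 CPM in the controls of 72 h, 13.05, 16.1 and 46.6 CPM in those of 96 h and 5.08, 3.69 and 3.81 CPM in the early libraries of 96 h. Col4a6 was at 3.198, 3.49 and 3.704 CPM in the controls of 72 h, 9.14, 8.69 and 36.4 CPM in those of 96 h and 3.702, 3.36 and 2.48 CPM in the early libraries of 96 h. Replicate 3 of the controls of 96 h was the highest for both genes, the reverse of its place in Fn1 and Lama1. That library also held the highest sum of the neural tube markers, and their part in both genes was not tested. The early arm was lower at 96 h (-2.58 ± 0.35 for Col4a5 and -2.48 ± 0.41 for Col4a6, adjusted p = 5.3e-06 and 4.02e-05). Without that library the values were -1.79 and -1.47, and both remained called. The control step from 72 to 96 h was 2.59 ± 0.36 for Col4a5 and 2.37 ± 0.41 for Col4a6, and 1.81 and 1.37 without it. In the untreated controls of 48 h, Col4a6 was at 0.255, 0.445 and 0.256 CPM. The third pair, Col4a3 and Col4a4 on chromosome 1, which supply the kidney and eye, was silent.

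Col18a1, whose product is a basement membrane collagen that carries heparan sulfate and releases endostatin, was the most abundant collagen in all 6 groups, with means from 38.2 ± 20.1 to 105 ± 0.748 FPKM. In CPM it was at 630.1, 638 and 663 in the controls of 48 h, 379, 362 and 407 at 72 h and 164, 164 and 368 at 96 h, where replicate 3 was above the other 2. The early libraries held 731, 708 and 712 CPM at 48 h, 673, 677 and 667 CPM at 72 h and 437, 449 and 447 CPM at 96 h. It fell in the controls from 48 to 72 h (-0.75 ± 0.19) and was higher in early than in control gastruloids at 72 h (0.81 ± 0.19, adjusted p = 0.00213) and 96 h (0.94 ± 0.19, adjusted p = 0.000406). Without replicate 3 of the controls of 96 h the difference at 96 h was 1.45. The related Col15a1 was silent. Of the network collagens of type VIII and X, Col8a1 and Col10a1 were silent and Col8a2 had its highest mean at 2.12 CPM.

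The collagen receptors Itga1 and Itga2 differed between untreated and treated gastruloids. Itga1 was at 2.19, 2.47 and 2.63 CPM in the untreated controls and at 22.5, 22.04 and 21.4 CPM in the early libraries of the same age (3.18 ± 0.37, adjusted p = 1.5e-06). All 15 treated libraries were above the untreated ones, the nearest being replicate 3 of the controls of 96 h, in a group at 22.03, 23.9 and 5.799 CPM. The control step from 48 to 72 h was 3.03 ± 0.37 (adjusted p = 1.33e-06). Itga2 was at 0.102, 0 and 0.0641 CPM in the untreated controls, 3 counts in all, and at 2.66, 2.03 and 3.03 CPM in the early libraries of 48 h, 141 counts. The ratio was 47.9 (95% interval 16.04 to 235), an exact interval that covers counting error only. Itga10, a receptor chain of cartilage, had its highest mean at 1.54 CPM and shares 33.5% of its exon bases with the gene model Gm42957 on the same strand, so its counts are uncertain. Itga11 was silent.

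The promoter window of Itga1 is shown because it holds CTTTGAA, one of the forms of the motif bound by the TCF/LEF factors of Wnt signalling, marked in capitals. CTTTGAA stood in 6 of the 64 windows, those of Col13a1, Col15a1, Col6a2, Col9a1, Itga1 and Itga10 (9.38%, against 5.14% of all windows), and the form CTTTGAT in 1, that of Col9a2 (1.56% against 3.73%). Both were searched on both strands. The windows of Itga2 and Col6a5, genes also higher in the early libraries of 48 h than in the untreated controls, held neither form. A window without a match says nothing about the factor.
Itga1 (chr13:115101915-115102214, minus strand): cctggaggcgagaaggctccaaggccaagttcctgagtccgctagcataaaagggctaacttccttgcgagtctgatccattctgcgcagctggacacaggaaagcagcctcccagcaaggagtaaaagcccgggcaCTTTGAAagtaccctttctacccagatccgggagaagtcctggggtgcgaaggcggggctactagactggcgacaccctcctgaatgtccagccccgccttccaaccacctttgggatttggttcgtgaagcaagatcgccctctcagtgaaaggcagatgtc

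Fibrillar collagens were low in these gastruloids. In the controls of 96 h Col2a1 was at 2.36, 2.32 and 10.9 FPKM and Col1a2 at 4.82, 5.14 and 1.13 FPKM, where Col4a1 was at 21.5, 23.02 and 20.4 FPKM. Col2a1 was thus the higher of these fibrillar chains in replicate 3 alone, and Col1a2 in the other 2 libraries. Col5a1, of the type V fibrils that seed others, was at 11.2, 12.2 and 13.6 CPM at 48 h, 23.3, 25.95 and 22.1 at 72 h and 29.3, 27.4 and 33.98 at 96 h in the control arm and 20, 21.7 and 19.9 CPM in the early libraries of 96 h. It rose in the controls from 48 to 72 h (0.96 ± 0.10) and was lower in early than in control gastruloids of 96 h (-0.55 ± 0.10, adjusted p = 7.08e-05). Its partner Col5a2 went the other way, from 5.45, 5.05 and 5 CPM in the controls of 48 h to 1.07, 1.303 and 1.04 CPM at 72 h (-2.17 ± 0.25, adjusted p = 5.5e-07). Col5a3 had its highest mean at 1.603 CPM.

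Of type I collagen, the fibre of bone, skin and tendon, the alpha 2 chain was expressed and the alpha 1 chain was silent. Col1a2 was at 3.68, 3.23 and 2.73 CPM in the controls of 72 h, 31.8, 33.6 and 7.296 CPM in those of 96 h and 2.597, 3.41 and 3.47 CPM in the early libraries of 96 h. Replicate 3 of the controls of 96 h, though well below the other 2, was above every library of the other groups. Col1a2 rose in the controls from 72 to 96 h (2.91 ± 0.37) and was lower in the early arm at 96 h (-2.95 ± 0.37, adjusted p = 2.07e-06). Col1a1 reached 0.8098 ± 0.234 CPM in the controls of 96 h, and Col3a1, the usual companion of type I fibres, was silent.

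Col2a1, the fibrillar collagen of cartilage and notochord, rested on 1 library for its call at 96 h. It was at 15.9, 15.7 and 71.8 CPM in the controls of 96 h, where the neural tube markers summed to 6.503, 6.52 and 26.6 CPM, and at 15.8, 15.3 and 15.9 CPM in the early libraries. The part of neural cells in that value was not tested. The difference was -1.12 ± 0.39 (adjusted p = 0.02) with all libraries and -0.004 (adjusted p = 0.981) without replicate 3 of the controls. The call was also lost without replicate 2 or replicate 3 of the early libraries (adjusted p = 0.0545 and 0.0505). The control step from 72 to 96 h was 1.74 ± 0.41, and 0.64 without it. At 48 h Col2a1 was at 13.4, 13.1 and 13.8 CPM in controls and 7.299, 5.95 and 8.41 CPM in early libraries (-0.89 ± 0.44, adjusted p = 0.112).

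Col11a1, which co-polymerizes with type II collagen, rose in both arms. It was at 1.48, 1.63 and 1.22 CPM in the controls of 48 h, 9.701, 10.2 and 10.1 CPM at 72 h and 12.6, 14.3 and 21.9 CPM at 96 h, and at 1.06, 1.66 and 0.973, then 3.72, 3.54 and 3.099, then 7.07, 6.68 and 6.06 CPM in the early libraries. The early arm was lower at 72 h (-1.53 ± 0.19, adjusted p = 3.18e-06) and 96 h (-1.29 ± 0.17, adjusted p = 3.58e-06). Col11a2 had 8.29, 8.36 and 8.04 CPM in the controls of 96 h and at most 3.7 CPM in any library of the other groups. Col27a1 was at 3.46, 3.66 and 5.45 CPM in the controls of 48 h and 25.4, 23.5 and 26.6 CPM at 72 h (2.60 ± 0.15), and at 72 h the early libraries held 10.7, 10.8 and 11.4 CPM (-1.20 ± 0.13, adjusted p = 8.11e-07). Col24a1 was at 4.35, 5.59 and 3.49 CPM in the controls of 96 h and at 0.608, 0.7104 and 0.578 CPM in the early libraries (-2.81 ± 0.28, adjusted p = 1.06e-07).

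Of the transmembrane collagens, Col13a1 had the largest fold difference among the 66 tested genes between the arms at 96 h. Col13a1, a collagen of cell adhesion sites and of the neuromuscular junction, was at 54.99, 59.7 and 43.2 CPM in the controls of 96 h and at most 1.71 CPM in each of the other 15 libraries. Replicate 3 was the lowest of the 3 and still far above those 15. Col13a1 rose 61.7-fold in the controls from 72 to 96 h (5.95 ± 0.25, adjusted p = 1.78e-12), and early gastruloids of 96 h were 38.5-fold lower (-5.27 ± 0.23, adjusted p = 2.28e-12). A day after the pulse, the early libraries were at 0.546, 0.652 and 0.238 CPM, and the step over that day differed between the arms by -6.34 ± 0.59 (adjusted p = 1.13e-07). Col13a1 lies at chr10:61838236-61979108 on the minus strand. Its window is shown for the CTTTGAA match on the opposite strand, read as TTCAAAG below.
Col13a1 (chr10:61979059-61979358, minus strand): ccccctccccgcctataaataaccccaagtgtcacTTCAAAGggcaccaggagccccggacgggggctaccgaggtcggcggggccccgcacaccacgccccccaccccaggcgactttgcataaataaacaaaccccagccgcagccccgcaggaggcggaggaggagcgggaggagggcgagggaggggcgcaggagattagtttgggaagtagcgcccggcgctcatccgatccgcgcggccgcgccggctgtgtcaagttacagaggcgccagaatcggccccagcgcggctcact

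Col25a1, a transmembrane collagen of neurons and muscle, was at 19.1, 17.9 and 8.29 CPM in the controls of 96 h and at 0.663, 1.28 and 0.751 CPM in the early libraries (-4.04 ± 0.35, adjusted p = 1.63e-08). Col23a1 was at 0.255, 0.297 and 0.256 CPM in the controls of 48 h, 2.13, 2.502 and 2.79 CPM at 72 h and 7.44, 8.199 and 4.99 CPM at 96 h, and rose between 48 and 72 h (3.16 ± 0.37). Col17a1, the hemidesmosome collagen of epithelia, ran against Col23a1 from 48 to 72 h. It fell from 2.04, 2.08 and 2.69 CPM in the controls of 48 h to 0.107, 0.104 and 0.195 CPM at 72 h (-4.03 ± 0.43). The early libraries of 72 h held 2.08, 1.75 and 1.79 CPM (3.77 ± 0.44, adjusted p = 1.76e-06). At 96 h Col17a1 was at 1.26, 1.09 and 0.499 CPM in the controls and 0.829, 0.379 and 0.289 CPM in the early libraries.

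Of the collagens that decorate fibrils, Col12a1 and Col22a1 were lower in early than in control gastruloids of 96 h, and Col9a2 ran the other way. Col12a1 was at 3.86, 3.75 and 9.91 CPM there and at 0.276, 0.142 and 0.116 CPM in the early libraries of 96 h (-4.97 ± 0.48, adjusted p = 7.62e-08). Without replicate 3, which was the highest, the value was -4.37. Col22a1, a collagen of tissue junctions, was at 8.13, 7.602 and 9.85 CPM in the controls of 96 h and 3.26, 3.46 and 2.71 CPM in the early libraries (-1.43 ± 0.18, adjusted p = 1.55e-06). Col16a1 was at 0.662, 0.9401 and 0.705 CPM in the controls of 48 h and 5.06, 4.43 and 4.42 CPM at 72 h (2.57 ± 0.19), with 2.03, 2.08 and 2.38 CPM in the early libraries of 72 h. Col14a1 stood at 2.32, 2.71 and 8.61 CPM in the controls of 96 h, where replicate 3 was far above the other 2. Col9a2, a chain of the type IX collagen of cartilage, was at 1.301, 0.814 and 1.12 CPM in the controls of 96 h against 3.78, 3.34 and 5.198 CPM at 72 h (-1.89 ± 0.22), and the step over the day after the pulse differed by 2.74 ± 0.29 (adjusted p = 6.97e-07). Col9a3, whose mean was at most 10.2 CPM, overlaps the far more abundant Tcfl5 on the other strand, and Col20a1 overlaps another gene model, so both are uncertain. Col9a1 and Col19a1 were silent.

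Of the bead-forming type VI collagens, the chains Col6a1 and Col6a2 of the common form were low and the remaining chain Col6a3 was silent, while Col6a5 stood out after the early pulse. Col6a5 was at 0.255, 0.445 and 0.385 CPM in the untreated controls and 25.96, 20.99 and 22.7 CPM in the early libraries of 48 h (5.98 ± 0.42, adjusted p = 2.05e-09). In the controls at the end of their pulse it was at 4.74, 4.43 and 12.3 CPM, replicate 3 highest, 4.26 ± 0.47 above the untreated level and 3.65 without that library. The early libraries fell to 7.44, 7.496 and 7.39 CPM at 72 h (-1.64 ± 0.27) and held 4.42, 2.699 and 4.04 CPM at 96 h. Col6a4, its neighbour on chromosome 9, was at 1.98, 2.12 and 1.67 CPM in the early libraries of 72 h and 0.267, 0.156 and 0.195 CPM in the controls (3.19 ± 0.31, adjusted p = 2.3e-07), and Col6a6, the third gene of that cluster, was silent. Col6a2 rose from 1.07, 2.08 and 1.603 CPM in the controls of 48 h to 4.904, 5.16 and 5.98 CPM at 72 h (1.75 ± 0.22), and Col6a1 reached 1.42 CPM. Col7a1, the anchoring fibril collagen, had group means between 4.55 ± 0.675 and 7.201 ± 1.797 CPM, Col26a1 had means up to 2.33 CPM, and Col28a1 was silent.

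The remaining integrin chains were low. Itga9, a receptor of tenascin and of fibronectin carrying the EDA segment, was at 1.78, 1.58 and 1.54 CPM in the untreated controls and 8.27, 7.795 and 6.41 CPM in the early libraries of 48 h (2.19 ± 0.23, adjusted p = 3.27e-07), and at 96 h the early libraries held 10, 9.57 and 8.66 CPM against 5.53, 5.92 and 3.87 CPM in the controls (0.87 ± 0.19). Itgb7, a chain of lymphocyte receptors, was at 1.65, 1.88 and 1.56 CPM in controls and 6.28, 5.59 and 6.29 CPM in early gastruloids at the end of the pulse (1.83 ± 0.18, adjusted p = 7.98e-08). Itgb2, the leukocyte beta chain, did not exceed 1.98 CPM as a group mean, and Itga2b, the platelet chain, 1.51 CPM.

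The arms were also compared with the pulse, not the age, lined up. At the end of the pulse Fn1 was higher in early than in control gastruloids (2.17 ± 0.25), as was Col18a1 (0.91 ± 0.19). Col11a1 and Col25a1 were lower there (-3.03 ± 0.22 and -2.75 ± 0.54). A day after the pulse Fn1 was lower in the early arm (-1.81 ± 0.24), as were Lama1 (-3.17 ± 0.22) and Col13a1 (-6.70 ± 0.27), while Itga3 was higher (0.87 ± 0.08). These groups differ in age as well as in arm, and age and arm cannot be told apart in them.

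By family, the early gastruloids of 96 h are read against the 29.6% of all genes that were lower and the 29.5% that were higher. Among the 34 tested collagens, 22 were lower (64.7%) and 6 higher (17.6%), with a median of -0.97. Of the 9 tested laminins, 5 were lower (55.6%) and 2 higher (22.2%). The 12 integrin alpha chains had 5 lower (41.7%) and 4 higher (33.3%), and the 7 tested beta chains 3 lower (42.9%) and 2 higher (28.6%), shares closer to those of all genes than the collagens' lower share. At 48 h the collagens had 7 higher (20.6%) and 6 lower (17.6%), both below the 23% and 20.7% of all genes. Of the 4 single proteins 3 were higher at 48 h, the exception being Hspg2.

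Genes that process, cut or bind the matrix were followed as lists beside the 80. The early gastruloids of 96 h had 13 of 27 tested collagen processing genes lower and 5 higher, 11 of 22 other matrix proteins lower and 6 higher, and 11 of 19 genes of the integrin adhesion machinery lower and 3 higher, where 29.6% of all genes were lower and 29.5% higher. List medians were -0.12, -0.76 and -0.20 against -0.01 for all genes. Serpinh1, the chaperone of collagen folding, was lower there (-1.01 ± 0.07), as was Bmp1, the protease that trims fibrillar procollagens (-1.73 ± 0.15). It was Mmp25, a membrane-anchored matrix protease, that gave the lowest adjusted p among the proteases and inhibitors, being higher in early gastruloids (4.26 ± 0.14, adjusted p = 6.72e-14), with 9 of the 23 tested genes of that list lower and 5 higher. Spp1, the integrin ligand osteopontin, was also higher (3.31 ± 0.17), while Vcan, a proteoglycan, and Fbln1, which binds fibronectin, were lower (-1.96 ± 0.13 and -1.62 ± 0.10). Of the machinery that ties integrins to actin, Tns1 and Parva were lower (-2.89 ± 0.22 and -1.89 ± 0.14), and of 12 other matrix receptors, 7 were lower and 3 higher.

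At 48 h, 9 of the 27 collagen processing genes were higher in early than in untreated gastruloids and 3 lower, against 23% and 20.7% of all genes. Serpinh1 was higher (1.92 ± 0.07). Frem2, a protein of the basement membrane of epithelia, was higher (2.12 ± 0.09), and Sparc, a collagen-binding protein, was lower (-1.04 ± 0.08). Timp3, an inhibitor of matrix proteases that binds the matrix, was lower (-2.06 ± 0.15). In the control step from 48 to 72 h, where the control pulse fell, 13 of 27 collagen processing genes were higher and 4 lower and 13 of 22 other matrix proteins were higher and 4 lower, against 31.1% and 30.3% of all genes, with Serpinh1 at 2.72 ± 0.07 and Frem2 at 3.52 ± 0.09.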

How the data were processed

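Raw gene counts and FPKM values of 18 libraries were used as the authors deposited them. Per the submitters' processing notes the tools were cutadapt 4.0, STAR 2.7.8a and Cufflinks 2.2.1 on mm10, and the strand setting of the counting is not given in the sources used here. The deposited counts are whole reads per gene and carry no scaling. The deposited FPKM values are scaled by the authors for transcript length and depth and served only to compare levels between genes and as an alternative.

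Counts were filtered (filterByExpr), scaled (TMM) and fitted over all 18 libraries and 6 groups with edgeR's quasi-likelihood test (edgeR 4.0.16, limma 3.58.1, DESeq2 1.42.0, R 4.3.3). Benjamini-Hochberg adjustment ran over all 16041 genes tested, with a threshold of 0.05, and the fit was tested on simulated counts first. CPM are on the TMM scale. Python 3.11.15 (pandas 2.3.3, numpy 2.4.6, matplotlib 3.10.9) was used for tables and plots. Promoter windows were read from RefSeq.

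The genes and lists were chosen with earlier results of these data known. Genes were named as a panel by role, plus up to 5 rising and 5 falling genes a comparison (called, at 5 CPM or more, libraries not overlapping), and up to 4 of each list of other matrix genes by lowest adjusted p. The remaining ones were named to account for the set, after their values were seen, except 1 gene that is counted in the totals and not reported here. Same-numbered libraries correlated only weakly, so no block was used in the main fit. Alternatives were other scaling, filters and tools, fits on log2 FPKM, and leaving out libraries. The depth, the same for all genes of a library, limits the scarce ones: 3 counts over a group was taken as the floor.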

Additional observations from a re-analysis of the deposited data

Results flagged for a closer look

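Among the genes whose change over the day after the pulse differed between the arms, by edgeR's quasi-likelihood test of the difference itself, 9 were described with that value above. The early step minus the control step, on the log2 scale, was -6.34 for Col13a1, -3.98 for Fn1, -3.07 for Lama1, -2.84 for Itga8, -1.79 for Itga5, -1.25 for Nid2 and -0.57 for Lamc1. It was 2.74 for Col9a2 and 1.23 for Lama5. The steps compared are 48 to 72 h in the early arm and 72 to 96 h in the control arm, so the arms also differ in age. Groups of 3 libraries are too small for the test of single outlying libraries.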

How the results depend on the processing

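The 130 called gene results printed above were refitted under 28 alternatives, 18 of which left out a library. None reversed, 123 were called in all 28 and 128 in all those on counts. Besides Col2a1, whose call at 96 h is described above and whose control step to 96 h missed the threshold with only the groups compared (adjusted p = 0.0513), calls were lost on log2 FPKM for Itgb8 at 48 h, Itga9 at 96 h, Col25a1 at the end of the pulse, Col6a5 in the early step from 48 to 72 h and Itga8 in the difference between arms. The cause was not tested.

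Counts of the 66 genes moved by more than 1.5 times as follows. Those lower in early gastruloids of 48 h were 11, 17 with no filter and 7 on log2 (FPKM + 1), also with all genes. In the early step from 48 to 72 h, those higher went from 23 to 14 on log2 (FPKM + 1) and 10 with all genes, and those lower from 8 to 4 on log2 (FPKM + 0.1). In the early step from 72 to 96 h, those lower went from 15 to 7, 6 and 4 in these 3 fits. On log2 (FPKM + 1) with all genes, those higher were 11 at 72 h, 7 at 96 h, 8 in the early step from 72 to 96 h and 8 in the difference between arms. In that fit those lower were 10 and 7 in the control steps and 17 at the end of the pulse. The number of silent genes was 40 with a limit of 1 FPKM. No count moved by that much on leaving out any single library.

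No block by replicate number was used in the main fit, since in no pair of groups did every same-numbered pair correlate above 0.1. Some weak links by number were seen. Same-numbered libraries of the controls of 48 and 72 h correlated at 0.097 to 0.234, and others at most at 0.122. For the controls of 72 h and the early libraries of 96 h, same-numbered values ran from -0.076 to 0.186. Whether same-numbered libraries share a culture or a batch was not tested. With a replicate block, 14 genes were higher and 37 lower in early gastruloids of 96 h, no printed gene call changed, and no count of the 66 moved by more than 1.5 times.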
